A study of Saccharomyces cerevisiae with 19 samples.

Results

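Moderate overexpression of PCF11 was compared with wild-type (WT) yeast in 6 RNA sequencing libraries, 3 of the strain Pcf11-OE2 and 3 of WT, out of 19 samples in the series. All 6437 named features of the count table were taken, and 6119 of them had enough reads to be tested. WT carries no change of PCF11 per the labels, while Pcf11-OE2 and a further overexpression strain, Pcf11-OE1, carry extra PCF11 expression. The study's design pairs a strong promoter (TEF1p) with the GRS1 terminator in one construct and a weak one (CDC60p) with a DIT1 terminator in the other, but the labels do not assign these pairs to OE1 and OE2. Every library is marked 36h and lists both S288C and CEN.PK2-1C, so the labels do not say which background a strain has. Cultures were grown in liquid medium at 30°C, with antibiotics where a strain needed them. The labels call the replicates biological, and say nothing of the number of clones behind each strain.

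Pcf11 is a subunit of cleavage factor IA, which together with the cleavage and polyadenylation factor cuts nascent messenger RNA at its 3′ end and adds the poly(A) tail. It binds the C-terminal domain of RNA polymerase II and also takes part in ending transcription downstream of the cut. Yeast adjusts many transcripts to its carbon source: cells that run out of glucose switch on genes for the use of ethanol, acetate and fatty acids, while ribosome production is highest in growing cells. In bulk RNA, fewer cells of a kind and less RNA per cell cannot be told apart.

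Total counts were 33571291 to 40912197 in WT, 38723233 to 40151320 in Pcf11-OE2 and 38510192 to 41799566 in Pcf11-OE1, and 6248 to 6303 features were detected per library. Levels are given in CPM, which are counts scaled to the size of each library, and a gene is called when its edgeR quasi-likelihood test gave an adjusted p under 0.05. The 3 OE2 libraries were not equally close. Replicate 1 differed from the mean of the other 2 by a median of 0.19 on the log2(CPM + 1) scale, against 0.16 for replicate 2 and 0.084 for replicate 3, and several carbon and stress genes below were higher in it than in replicates 2 and 3. Of 5950 protein-coding features set beside RefSeq genes of assembly R64, 99.8% began at the same base and 83.7% ran on past the 3′ end of the RefSeq gene, by a median of 448 bases. In all, 74.7% of named features share bases with another, and in WT the table held 1.07 to 1.21 counts per read sequenced. Both overexpression strains are compared with the same 3 WT libraries.

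PCF11 rose in Pcf11-OE2 to a level between those of WT and Pcf11-OE1. PCF11 (YDR228C, chrIV:921441-923806, minus strand) had 17.6, 13.8 and 13.9 CPM in WT and 87.6, 66.3 and 70.1 CPM in Pcf11-OE2. All 3 OE2 libraries lay above all 3 WT libraries, and the gene stood at 15.1 ± 2.14 CPM in WT and 74.7 ± 11.4 CPM in Pcf11-OE2 (SD, n = 3), 4.95-fold higher (log2 fold change 2.31 ± 0.14 SE, edgeR adjusted p = 7.57e-07). The exact two-sided permutation test of its log2 CPM gave p = 0.1, the smallest that 3 libraries against 3 allow. Pcf11-OE1 had 610.4, 566 and 557 CPM, and OE2 was lower than OE1 by a log2 fold change of -2.95 ± 0.14 SE (edgeR adjusted p = 7.18e-06). SIR4, a silencing gene on the opposite strand, shares 666 bases with PCF11, 28.1% of it, and the SIR4 feature runs 459 bases past the end of the RefSeq gene. It had 39.2, 38.7 and 35.4 CPM in WT and 74.7, 65.8 and 63.4 CPM in Pcf11-OE2 (log2 fold change 0.85 ± 0.09 SE, edgeR adjusted p = 3.09e-05), and how many of them come from PCF11 transcripts was not tested.

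The genes that lend their promoters and terminators to the constructs were measured as well, 2 of them higher and 2 lower. TEF1, a translation elongation factor gene, was called higher at 256, 231 and 254 CPM in WT and 354, 349 and 339.5 CPM in Pcf11-OE2 (log2 fold change 0.49 ± 0.13 SE, edgeR adjusted p = 0.00594). CDC60, the leucyl-tRNA synthetase gene, had 31.5, 25.7 and 27.4 CPM in WT and 50.3, 50.8 and 54.3 CPM in Pcf11-OE2 (log2 fold change 0.88 ± 0.17 SE, edgeR adjusted p = 0.00117). GRS1, the glycyl-tRNA synthetase gene, was lower at 144, 138 and 178 CPM in WT and 114, 104 and 105 CPM in Pcf11-OE2 (log2 fold change -0.51 ± 0.13 SE, edgeR adjusted p = 0.00668). DIT1, a gene of spore wall formation, was also lower at 25.6, 25.4 and 28.9 CPM in WT and 20.2, 21 and 17.1 CPM in Pcf11-OE2 (log2 fold change -0.46 ± 0.12 SE, edgeR adjusted p = 0.00628). In each of these genes the 3 libraries of one strain lay wholly above those of the other. The neighbour DIT2, another spore wall gene, rose 3.64-fold (from 3.6 to 13.2 CPM).

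Changes were spread over the genome. Of 6119 genes tested, 2021 (33.0%) were called higher and 1957 (32.0%) lower in Pcf11-OE2 than in WT, 65.0% in all, and the replicates of the 2 strains did not overlap in 70.6%. At least 2-fold changes were called for 682 genes upward (11.1%) and 672 downward (11.0%), and at least 4-fold changes for 154 (2.52%) and 158 (2.58%). The median log2 fold change over all genes was 0.0037, and the 10th and 90th percentiles were -1.06 and 1.07. Among the 1388 tested features that share no base with another, 34.7% were higher and 33.0% lower. The shares over all genes are the background against which each gene group below is to be read. Without Pcf11-OE2 replicate 1 the counts were 2091 higher and 2005 lower.

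**Figure D1:**
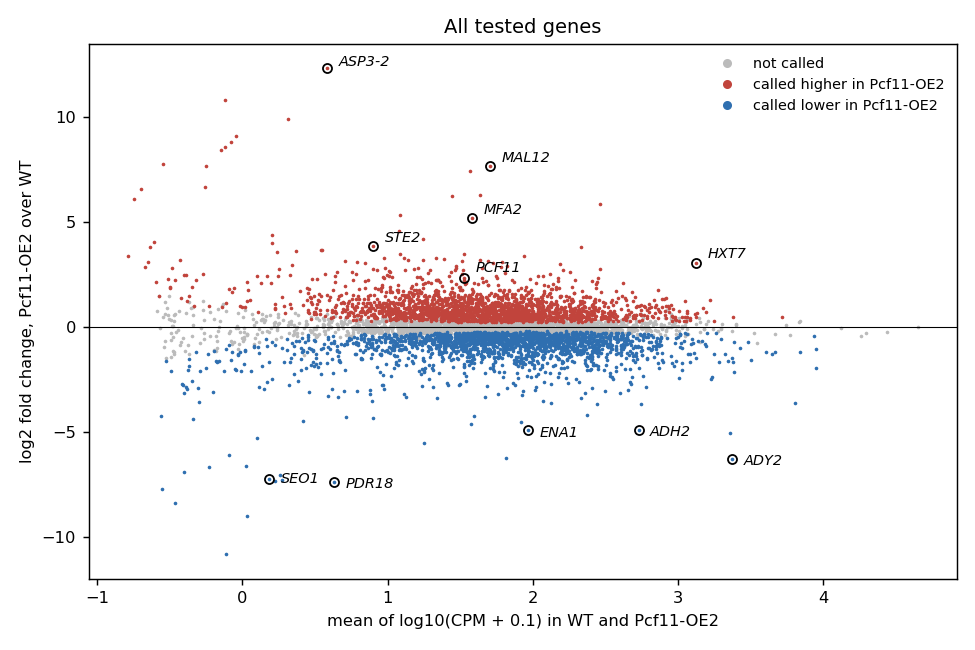
Log2 fold change of Pcf11-OE2 over WT (vertical axis) against the mean of log10(CPM + 0.1) in both strains (horizontal axis) for the 6119 genes tested, with red points for the 2021 called higher, blue for the 1957 called lower and grey for the rest. Circled genes are named in the text and run from ASP3-2 at 12.31 to PDR18 at -7.38, with PCF11 at 2.31.

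The partners of Pcf11 were called in both directions. Of the 5 cleavage factor I genes, RNA15 rose besides PCF11 itself and the other 3 were not called. RNA15, whose protein binds RNA near the cleavage site, had 48.1, 38.1 and 46.3 CPM in WT and 97.8, 83.9 and 88.9 CPM in Pcf11-OE2 (log2 fold change 1.03 ± 0.12 SE, edgeR adjusted p = 4.44e-05), and these groups did not overlap. RNA14, which scaffolds the same factor, had 112, 119.8 and 125 CPM in WT and 104, 109.8 and 116 CPM in Pcf11-OE2 (log2 fold change -0.11 ± 0.09 SE, edgeR adjusted p = 0.315). CLP1, at a log2 fold change of 0.19 ± 0.11 SE, and HRP1, at -0.29 ± 0.22 SE, were not called. Of 15 genes of the cleavage and polyadenylation factor, 5 were called higher (background 33.0%) and 3 lower (background 32.0%). CFT2, which encodes a subunit that binds the RNA, rose from 70.1, 77 and 72.2 CPM to 149, 152 and 148 CPM (log2 fold change 1.03 ± 0.08 SE, edgeR adjusted p = 3.83e-06). PTI1, of the same complex, rose 2.19-fold, and YSH1, the endonuclease that makes the cut, 1.67-fold (from 15.6 to 26.1 CPM). REF2 (-0.78 ± 0.13 SE), GLC7 (-0.50 ± 0.09 SE), a phosphatase subunit, and FIP1 (-0.39 ± 0.10 SE), which links the poly(A) polymerase to the complex, fell on the log2 scale. Of the FIP1 feature 55.5% is shared with others. The poly(A) polymerase gene PAP1 was not called at 201, 215 and 229.6 CPM in WT and 167, 207 and 178 CPM in Pcf11-OE2 (edgeR adjusted p = 0.101), but was called lower without Pcf11-OE2 replicate 2 (0.0374).

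Genes of transcription termination and RNA decay in the nucleus were more often higher than lower. Of 8 termination genes 4 were higher (background 33.0%) and 1 lower (background 32.0%). PCF11, which the strain overexpresses by design, is 1 of the 4. RAT1, the exonuclease that degrades RNA downstream of the cut, had 78.1, 70.1 and 74.2 CPM in WT and 195, 245 and 249.9 CPM in Pcf11-OE2 (log2 fold change 1.63 ± 0.12 SE, edgeR adjusted p = 2.12e-06), with no overlap. The RNA-binding termination factors NRD1 and NAB3 rose 2.05-fold and 1.62-fold, while SEN1, the helicase that works with them, was not called at a log2 fold change of 0.10 ± 0.11 SE. RTT103, which binds the polymerase tail as Pcf11 does, fell to 115 ± 3.66 from 162 ± 3.85 CPM (SD, n = 3). Of 18 nuclear exosome genes 10 were higher and 3 lower, with a median of 0.37. TRF5, a poly(A) polymerase that marks RNA for the exosome, rose from 15, 17 and 16.1 CPM to 45.3, 74 and 61.1 CPM, whereas its relative PAP2 fell from 284, 210.3 and 213 CPM to 83.4, 88.5 and 95.4 CPM. The helicase gene MTR4, which works with both, rose 2.37-fold. Of these 18 genes 9 share at least 50% of their bases with other features. RNA polymerase II subunits were mostly not called, with 2 of 12 higher and 1 lower. Of 14 kinases and phosphatases of the polymerase tail 5 were higher and 4 lower, near the background of 33.0% and 32.0%. CTK3, of the tail kinase CTDK-I, rose from 11.6, 12.5 and 9.79 CPM to 52.3, 70.7 and 60.6 CPM. CCL1, the cyclin of TFIIH, fell from 539.8, 513 and 416 CPM to 124, 145 and 154 CPM. Among 13 genes of poly(A) binding and export, 3 were higher and 5 lower, against the same background. PAB1, the main poly(A)-binding protein gene, fell 1.41-fold, and NAB2, which limits tail length, rose 1.33-fold.

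Genes for growth on non-fermentable carbon were mostly lower. In gluconeogenesis and the glyoxylate cycle 15 of 22 genes were called lower and 2 higher, with a median of -1.07. ADY2, the acetate transporter gene, had 19266, 20019 and 22955 CPM in WT and 526, 120.2 and 160.4 CPM in Pcf11-OE2. Every OE2 library was more than an order of magnitude below WT, and replicate 1 was the highest of the 3. The fall was 77.2-fold (log2 fold change -6.27 ± 0.68 SE, edgeR adjusted p = 2.99e-05). Transcripts of its relative ATO3 fell from 150.3, 171 and 187 CPM to 11.5, 7.37 and 8.35 CPM, and those of the lactate and pyruvate transporter JEN1 from 4691, 5227 and 5453 CPM to 1500.1, 709.8 and 1205 CPM. MDH2, the cytosolic malate dehydrogenase of gluconeogenesis, fell 8.15-fold (from 1282 to 157 CPM). The acetyl-CoA synthetase gene ACS1 and CAT8, a regulator that activates this programme, were lower by log2 fold changes of -1.95 and -1.48. SIP4, which encodes an activator of the same genes, was called higher at 69.7, 65 and 55.9 CPM in WT and 114, 119 and 111 CPM in Pcf11-OE2. ICL1, the isocitrate lyase gene, was called higher in the full set (from 571 to 949 CPM, edgeR adjusted p = 0.0473), but lost its call without any 1 of 5 libraries, Pcf11-OE2 replicate 1 among them (0.146). Without that replicate 17 genes of the list were lower and 1 higher.

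Genes of the citric acid cycle were more often lower, while those of fermentation and ethanol use were called near the background share each way. Of 19 citric acid cycle genes 12 were lower and 3 higher, with a median of -0.59. CIT3, a mitochondrial citrate and methylcitrate synthase gene, had 1966, 1931 and 2106 CPM in WT and 278, 83.8 and 105 CPM in Pcf11-OE2 (log2 fold change -3.69 ± 0.45 SE, edgeR adjusted p = 5.78e-05), and the groups stood far apart. The succinate dehydrogenase gene SDH1 went the other way, from 679.7 to 1232 CPM (log2 fold change 0.86 ± 0.11 SE, edgeR adjusted p = 6.68e-05). Of 15 genes of fermentation and ethanol use 5 were higher (background 33.0%) and 5 lower (background 32.0%), with a median of 0.10. ADH2, which encodes the alcohol dehydrogenase that oxidises ethanol, had 2763, 2789 and 3180.5 CPM in WT and 165, 59.7 and 69.2 CPM in Pcf11-OE2 (log2 fold change -4.89 ± 0.44 SE, edgeR adjusted p = 8.26e-06), and ADH1, which forms ethanol, rose 1.52-fold. ALD4, a mitochondrial aldehyde dehydrogenase gene, fell 6.64-fold, while ALD5 and ALD6, genes for other aldehyde dehydrogenases, rose 6.09-fold and 2-fold. Without Pcf11-OE2 replicate 1 the log2 fold changes were -7.19 for ADY2, -4.39 for CIT3, -5.48 for ADH2 and -3.57 for ALD4. Of 18 glycolysis genes 2 were higher and 2 lower. Without Pcf11-OE2 replicate 1 the counts were 0 and 5, without WT replicate 2 none was higher, and without Pcf11-OE2 replicate 3 there was 1 each way, with 1 lower also without WT replicate 3. Oxidative phosphorylation was mixed, with 15 of 36 lower and 8 higher (14 and 12 without Pcf11-OE2 replicate 1, and 5 higher without replicate 2). QCR10 and ATP17, subunits of the cytochrome bc complex and the ATP synthase, fell 4-fold and 3.34-fold, while CYC1 and CYT1, both for c-type cytochromes, rose 2.52-fold and 2.29-fold. Features of other genes cover 83.5% of ATP17 and 84.7% of CYC1. All 3 formate genes were lower: FDH2 fell from 777, 1229 and 1026 CPM to 102, 29.7 and 34.6 CPM, and FDH1, a related formate dehydrogenase gene, from 365, 581 and 498 CPM to 231, 83.7 and 101 CPM. FDH2 stood at -4.19 on the log2 scale, and at -4.96 without Pcf11-OE2 replicate 1.

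**Figure D2:**
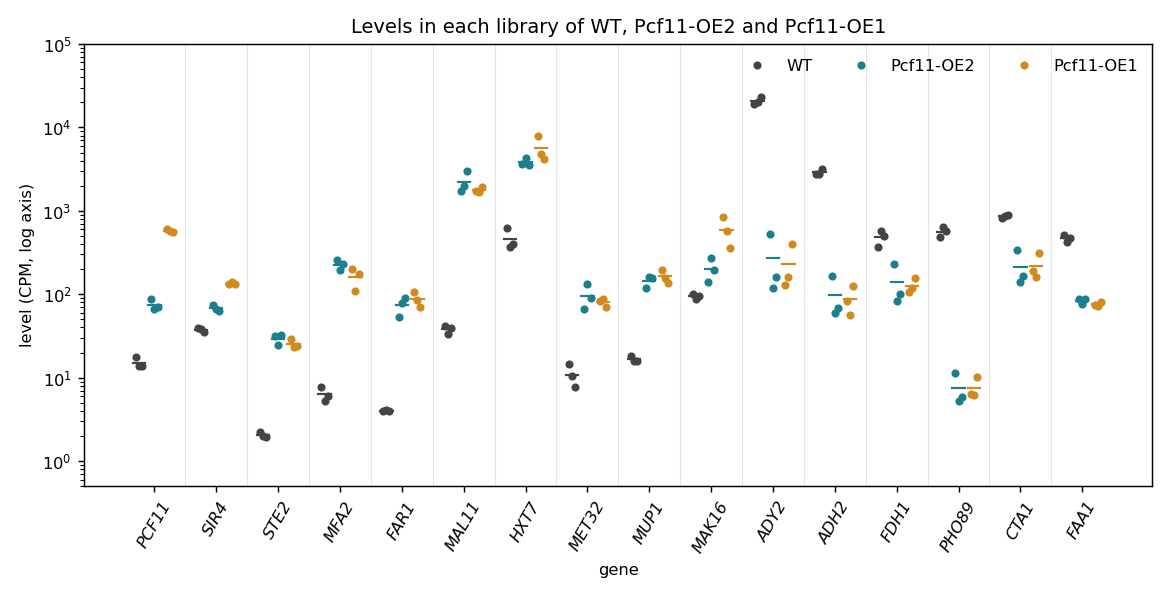
Levels in CPM on a log axis of 16 genes (horizontal axis) in the 3 libraries each of WT (grey), Pcf11-OE2 (teal) and Pcf11-OE1 (orange), with a bar at each mean. PCF11 is at 15.1, 74.7 and 578 CPM in these strains, while ADY2 falls from 20747 CPM in WT to 269 CPM in Pcf11-OE2.

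Genes of fatty acid use in the peroxisome were mostly lower. Of 18 genes 15 were called lower and none higher, with a median of -1.55. Adr1, a regulator of this pathway, recognises a core written TTGGAG, which stands on either strand in the 500 bases before the start codon of 18.5% of 5900 protein-coding genes and of 10 of these 18 genes. All 10 of those genes were called lower, as were 5 of the 8 without it, and over all genes with the core 29.2% were higher and 35.5% lower. The stretches around the core are shown for 4 genes named here, read from the R64 genome in the direction of the gene, with the core in capitals. FAA1 and FAA2 encode fatty acyl-CoA synthetases, ECI1 an enoyl-CoA isomerase of β-oxidation and CTA1 the peroxisomal catalase.
FAA1: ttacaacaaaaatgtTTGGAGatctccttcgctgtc
FAA2: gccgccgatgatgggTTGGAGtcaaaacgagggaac
ECI1: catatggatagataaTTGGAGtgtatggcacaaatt
CTA1: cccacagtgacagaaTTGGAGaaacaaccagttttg
These lie at chrXV:909133-909168 (plus strand), chrV:184379-184414 (plus strand), chrXII:707070-707105 (minus strand) and chrIV:969824-969859 (minus strand). FAA1 had 508, 419.8 and 472 CPM in WT and 88.4, 76 and 87.6 CPM in Pcf11-OE2 (log2 fold change -2.47 ± 0.11 SE, edgeR adjusted p = 1.64e-07). FAA2 had 156, 206 and 204 CPM in WT and 79.6, 29.2 and 29.8 CPM in Pcf11-OE2 (log2 fold change -2.03 ± 0.39 SE, edgeR adjusted p = 0.00107). CTA1 had 827, 879 and 902 CPM in WT and 336, 141 and 164 CPM in Pcf11-OE2 (log2 fold change -2.02 ± 0.33 SE, edgeR adjusted p = 0.000446). In FAA2 and CTA1 the first OE2 library stood between WT and the other 2 OE2 libraries, while in FAA1 the 3 OE2 libraries were close. ECI1, with 68% of its feature shared, fell 4.2-fold and DCI1, its close relative, 6.89-fold. POX1, POT1 and FOX2, which carry out the steps of β-oxidation, fell by 1.98, 1.58 and 1.82 on the log2 scale, and PEX11, needed for peroxisome division, by 2.02. Without Pcf11-OE2 replicate 1, 16 genes were lower and the median was -2.21, with ECI1 at -2.72 and FAA2 at -2.66.

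Genes of storage carbohydrates, the vacuole and oxidative stress were more often lower. Of 17 trehalose and glycogen genes 11 were lower and 1 higher. That count was 15 without Pcf11-OE2 replicate 1 and 6 without WT replicate 1, and the higher one lost its call without any 1 of 4 libraries. GSY2, the main glycogen synthase gene, had 771, 602 and 706 CPM in WT and 111, 77.3 and 89.8 CPM in Pcf11-OE2 (log2 fold change -2.90 ± 0.19 SE, edgeR adjusted p = 1.24e-06), with no overlap. ATH1, which breaks down trehalose, and GDB1, the glycogen debranching enzyme gene, fell 2.63-fold and 2.62-fold. Of 37 autophagy and vacuolar genes 24 were lower and 2 higher. PEP4, the vacuolar protease A gene, fell from 326, 320.0 and 332 CPM to 100.1, 99.5 and 116 CPM and ATG17, a scaffold of autophagy initiation, 3.46-fold. PRB1, the vacuolar protease B gene, was one of the 2 called higher at 4562, 4269 and 4424 CPM in WT and 6907, 5029 and 6551 CPM in Pcf11-OE2 (edgeR adjusted p = 0.017), and lost that call without Pcf11-OE2 replicate 3 (0.0667). Of 21 oxidative stress genes 12 were lower and 3 higher, with TRX1, a thioredoxin gene, lower by 4.58-fold and OYE3, an NADPH dehydrogenase gene, higher by 3.96-fold. Of 29 general stress genes 10 were lower, a share near the background, and 7 higher. Leaving out each library in turn gave 7 to 15 lower, with 15 without Pcf11-OE2 replicate 1. Among the 8 largest falls in CPM were those of genes linked to the stationary phase and to drying. SPG1, needed for survival at high temperature in stationary phase, had 22029, 24782 and 21159 CPM in WT and 3273, 812 and 1358 CPM in Pcf11-OE2 (log2 fold change -3.64 ± 0.53 SE, edgeR adjusted p = 0.000199). RGI2, a respiratory growth gene, had 13120.0, 14383 and 11968 CPM in WT and 858, 132 and 188 CPM in Pcf11-OE2 (log2 fold change -5.07 ± 0.76 SE, edgeR adjusted p = 0.000246). In both, replicate 1 of OE2 was several times the other 2 libraries yet below every WT library. Without it the log2 fold changes were -4.37 for SPG1 and -6.35 for RGI2. SPG4 fell 3.87-fold, and SED1, a cell wall protein gene, 2.26-fold. The hydrophilin genes GRE1 and SIP18, with 60% of the SIP18 feature shared, were called lower at log2 fold changes of -1.20 and -1.06. GRE1 lost its call without any 1 library except OE2 replicate 1, where it stood at -1.93. SIP18 lost it without OE2 replicate 2 or 3 or WT replicate 1 or 3.

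**Figure D3:**
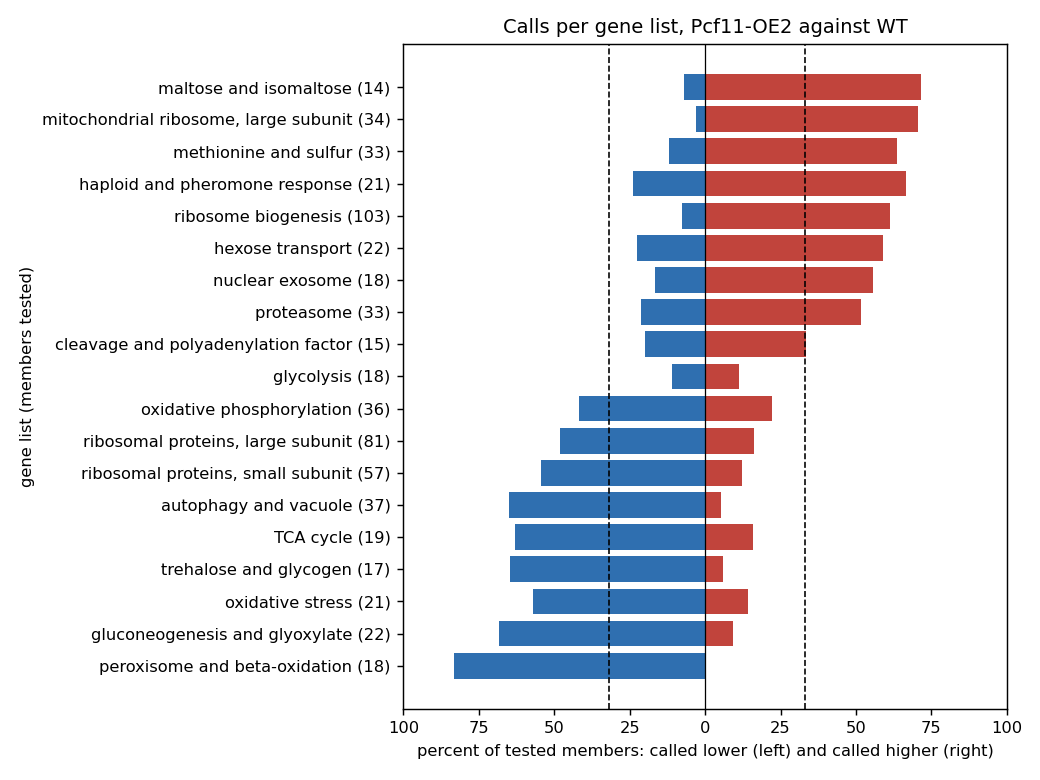
Percent of tested members called lower (blue, left) and called higher (red, right) in Pcf11-OE2 against WT for 19 gene lists, ordered by median log2 fold change, with the number tested in brackets. Dashed lines mark the background of all genes, 32.0% lower and 33.0% higher, and the lists run from peroxisome and β-oxidation, with 15 of 18 lower, to maltose and isomaltose, with 10 of 14 higher.

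Genes of maltose use and hexose uptake were more often higher. Of 14 maltose and isomaltose genes 10 were higher and 1 lower. MAL12 (YGR292W, chrVII:1076599-1078774, plus strand), a maltase gene, had 3.89, 3.1 and 3.5 CPM in WT and 487, 702 and 929 CPM in Pcf11-OE2 (log2 fold change 7.66 ± 0.27 SE, edgeR adjusted p = 3.63e-08). MAL32, whose coding sequence is 99.5% identical and which may share reads with it, had 3.39, 2.42 and 2.45 CPM in WT and 326, 466 and 632 CPM in Pcf11-OE2. MAL11, a maltose transporter gene with the largest gain in CPM after HXT7, had 41.7, 33.4 and 39.4 CPM in WT and 1711, 1977 and 2971 CPM in Pcf11-OE2 (log2 fold change 5.86 ± 0.23 SE, edgeR adjusted p = 7.23e-08). All OE2 libraries of these genes were far above WT, with replicate 3 the highest in each. MAL31, the transporter gene next to MAL32, rose 13.7-fold, and the isomaltase gene IMA1 6.67-fold. IMA2, another isomaltase gene, fell 1.35-fold. Of 22 hexose transport genes 13 were higher and 5 lower (3 without Pcf11-OE2 replicate 2 or 3 or WT replicate 2). HXT7, a high-affinity glucose transporter gene, had 625, 366 and 398 CPM in WT and 3685, 4305 and 3572 CPM in Pcf11-OE2 (log2 fold change 3.06 ± 0.28 SE, edgeR adjusted p = 1e-05), and HXT6, 99.8% identical to it, rose 10.5-fold. HXT17 and HXT13, transporters of a different branch, fell 7.74-fold and 3.52-fold. Of 7 galactose genes 4 were lower and none was higher, with falls of 5.03-fold for GAL10 and 4.75-fold for GAL7.

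Ribosome biogenesis genes were mostly higher, and genes for ribosomal proteins more often lower. Of 103 ribosome biogenesis genes 63 were higher and 8 lower, with a median of 0.68, and 36 rose at least 2-fold. Without Pcf11-OE2 replicate 1 there were 77 higher, and leaving out each library in turn gave 53 to 77. DRS1, an RNA helicase gene for large subunit assembly, had 69.7, 69.4 and 81.1 CPM in WT and 377, 499 and 462 CPM in Pcf11-OE2 (log2 fold change 2.60 ± 0.13 SE, edgeR adjusted p = 2.63e-07), with no overlap. MRT4 and SSF2, also of large subunit assembly, rose 4.38-fold and 4.32-fold, and NSR1, for a nucleolar protein, 5.49-fold, with 13.5, 35.2 and 19.3 CPM in the OE2 libraries. NOP16 rose from 415, 362 and 411 CPM to 1266, 1373 and 1339 CPM, with 59.4% of its feature shared with others. NOP56 and LOC1 fell 1.95-fold and 1.89-fold. The polymerase A and C element GATGAG was present in 94 of 102 of these promoters with a sequence, against 28.1% of all, and the rRNA processing element AAATTTT in 97 of 102, against 34.2%. Of the 94 with GATGAG 56 were higher and 8 lower, and of the 97 with AAATTTT 59 and 8, against 62 and 8 of the 102. Over all genes with GATGAG 39.0% were higher and 27.7% lower, and over those with AAATTTT 35.7% and 29.9%. Of 34 genes for mitochondrial ribosomal proteins of the large subunit 24 were higher and 1 lower. The highest rises were those of MRPL3 (3.13-fold), MRPL19 (2.9-fold) and MRPL27 (2.76-fold). The features of MRPL19 and MRPL27 share 76.4% and 70.3% of their bases.

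Of 81 cytosolic ribosomal proteins of the large subunit 39 were lower and 13 higher, (8 without Pcf11-OE2 replicate 3 or WT replicate 3), and of 57 of the small subunit 31 lower and 7 higher. RPS31, a fusion of ubiquitin and a small subunit protein, had 1336, 1119 and 999 CPM in WT and 204, 172 and 184 CPM in Pcf11-OE2 (log2 fold change -2.62 ± 0.20 SE, edgeR adjusted p = 3.3e-06), with 70.2% of its feature shared. RPL11A had 434, 404 and 328 CPM in WT and 74.5, 68.1 and 74.7 CPM in Pcf11-OE2 (log2 fold change -2.42 ± 0.18 SE, edgeR adjusted p = 2.29e-06), and shares no base. For both genes every OE2 library was far below every WT library. RPL20B and RPL35A fell 3.84-fold and 3.61-fold. Higher members included RPS9A, from 24.1, 22.6 and 20.9 CPM to 70.9, 127 and 105 CPM, and RPL37A and RPL43B, up 2.65-fold and 2.42-fold. Most of these proteins are encoded by a pair of similar genes, so reads can be split between copies. Of 35 translation factor genes 14 were higher and 5 lower (3 without Pcf11-OE2 replicate 3 or WT replicate 3), and of 18 aminoacyl-tRNA synthetase genes 5 were higher and 8 lower. The chaperone genes HSP82 and HSC82, 91.7% identical, were among the largest gains in CPM, at 2711, 2217 and 2841 and 2611, 1482 and 1922 CPM against 1294, 829 and 1062 and 1206, 895 and 1171 CPM in WT. DEF1, for a protein that helps degrade stalled RNA polymerase II, rose 2.62-fold.

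Most genes of sulfur assimilation and methionine synthesis and uptake were higher. Of 33 members 21 were higher and 4 lower, with a median of 0.88. Cbf1 binds CACGTG, and Met31 and Met32 bind a core written TGTGGC, which reads GCCACA where it lies on the other strand. CACGTG is also the core of Pho4 sites. Within 500 bases before the start codon CACGTG stood in 21 of the 33 against 6.27% of all genes, and TGTGGC in 22 against 14.3%. Both stood in 15 of the 33, of which 10 were higher and 1 lower, and in 68 of all 5900 (1.15%), of which 28 were higher and 13 lower. Of the 21 with CACGTG 14 were higher and 2 lower, as were 14 and 2 of the 22 with TGTGGC. Over all genes with CACGTG 36.8% were higher and 27.8% lower, against 33.0% and 32.2% without it. For TGTGGC the shares were 33.1% and 31.0% with it and 33.3% and 32.1% without. The windows that hold these sites are shown for the 5 genes of the list with the highest rises, with each core in capitals. MET17 makes homocysteine from sulfide, MET32 is a transcription factor, SAM2 an S-adenosylmethionine synthetase, and MUP1 and MMP1 import methionine and S-methylmethionine.
MET17: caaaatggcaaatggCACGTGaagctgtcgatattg
MET32: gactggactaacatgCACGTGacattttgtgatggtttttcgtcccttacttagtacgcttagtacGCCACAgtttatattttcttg
SAM2: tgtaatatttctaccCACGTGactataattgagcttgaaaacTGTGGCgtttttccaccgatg
MUP1: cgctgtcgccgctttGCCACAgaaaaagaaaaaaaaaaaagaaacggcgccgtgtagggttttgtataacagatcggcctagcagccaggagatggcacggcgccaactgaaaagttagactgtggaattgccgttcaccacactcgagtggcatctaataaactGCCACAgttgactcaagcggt
MMP1: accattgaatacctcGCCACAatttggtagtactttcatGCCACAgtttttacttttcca
They lie at chrXII:732227-732262 (plus strand), chrIV:964872-964958 (minus strand), chrIV:1454740-1454802 (minus strand), chrVII:598972-599157 (plus strand) and chrXII:17744-17803 (plus strand). MUP1 and MMP1 hold TGTGGC alone, MET17 CACGTG alone, and MET32 and SAM2 both. MET17 had 1.93, 2.05 and 2.2 CPM in WT and 13.4, 20.9 and 18.7 CPM in Pcf11-OE2 (log2 fold change 3.10 ± 0.23 SE, edgeR adjusted p = 2.29e-06). MUP1 had 18.5, 15.7 and 16 CPM in WT and 118, 159 and 157 CPM in Pcf11-OE2 (log2 fold change 3.12 ± 0.17 SE, edgeR adjusted p = 4.41e-07). MET32 had 14.7, 10.4 and 7.65 CPM in WT and 66.9, 131 and 90.1 CPM in Pcf11-OE2 (log2 fold change 3.14 ± 0.28 SE, edgeR adjusted p = 8.45e-06), and 74.6% of its feature is shared with others. No OE2 library of these genes overlapped with WT. MMP1 and SAM2 rose 5.21-fold and 4.15-fold. SAM3, which imports S-adenosylmethionine, and SAM4, which uses it, fell 2.29-fold and 8.2-fold, and CBF1 itself 1.83-fold. MET4, the activator of the pathway, was not called at a log2 fold change of 0.09 ± 0.09 SE.

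Genes of mating and the pheromone response were more often higher in Pcf11-OE2. In haploid a cells a-specific genes make the a-factor pheromone and the receptor for α-factor, and a kinase cascade ending in Ste12 turns on the response. Diploid cells repress these genes and can express regulators of meiosis. Of 7 a-specific genes 5 were higher and 1 lower, and of 21 haploid and pheromone response genes 14 were higher and 5 lower. The Ste12 site TGAAACA was present in all 7 promoters of the first list and 14 of 21 of the second, against 12.1% of all. Of the 7 a-specific genes with it 5 were higher and 1 lower, and of the 14 haploid and pheromone response genes with it 8 were higher and 5 lower. All 5 lower genes of the second list thus hold the site. Over all genes with it 34.7% were higher and 31.6% lower, against 33.0% and 32.0% of those without. The site is shown in capitals for MFA2, the a-factor gene, STE2, the α-factor receptor gene, and ASG7, a regulator of pheromone signalling, where it is on the other strand as TGTTTCA.
MFA2: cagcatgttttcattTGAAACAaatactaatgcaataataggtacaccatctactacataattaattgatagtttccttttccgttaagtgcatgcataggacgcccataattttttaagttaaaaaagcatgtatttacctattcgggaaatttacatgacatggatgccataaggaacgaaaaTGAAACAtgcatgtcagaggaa
STE2: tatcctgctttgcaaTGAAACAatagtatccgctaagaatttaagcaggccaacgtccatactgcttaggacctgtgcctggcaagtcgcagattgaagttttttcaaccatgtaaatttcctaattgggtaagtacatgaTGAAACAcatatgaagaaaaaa
ASG7: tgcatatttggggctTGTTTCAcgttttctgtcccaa
They lie at chrXIV:352034-352240 (plus strand), chrVI:82242-82404 (plus strand) and chrX:102179-102215 (minus strand). STE2 had 2.25, 1.98 and 1.95 CPM in WT and 31.3, 24.5 and 32.4 CPM in Pcf11-OE2 (log2 fold change 3.84 ± 0.16 SE, edgeR adjusted p = 1.12e-07). MFA2 had 7.64, 5.3 and 6.03 CPM in WT and 254, 195 and 233 CPM in Pcf11-OE2 (log2 fold change 5.17 ± 0.26 SE, edgeR adjusted p = 2.45e-07). ASG7 had 4.43, 3.35 and 2.92 CPM in WT and 42.8, 32.5 and 43.6 CPM in Pcf11-OE2 (log2 fold change 3.48 ± 0.19 SE, edgeR adjusted p = 4.18e-07). For all of these genes the WT libraries were low, far below every OE2 library. BAR1, the protease that degrades α-factor, and STE6, the a-factor exporter, rose 5.22-fold and 2.6-fold. AGA2, for an a-cell adhesion protein, fell 2.2-fold, with 80.9% of its feature shared. MFA1, the other a-factor gene, was not called, and its feature lies wholly within others. Among genes of the response, FAR1, which arrests the cell cycle, had 4.03, 4.06 and 4 CPM in WT and 52.8, 78.3 and 89.5 CPM in Pcf11-OE2 (log2 fold change 4.19 ± 0.23 SE, edgeR adjusted p = 4.41e-07). The scaffold STE5, the kinase FUS3 and the transcription factor STE12 rose 6.72-fold, 6.21-fold and 5.65-fold. RME1, a repressor of meiosis, had 18.2, 15.5 and 16.6 CPM in WT and 172, 77.7 and 103 CPM in Pcf11-OE2. In every one of them the WT libraries were the lower, and these genes were picked from those that rose. In the haploid and pheromone response list 10 genes were at least 2-fold higher and 1 at least 2-fold lower.

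Of the α-specific genes 5 were tested, with 2 higher (1 without Pcf11-OE2 replicate 3 or WT replicate 2) and 1 lower. STE3, the a-factor receptor gene, had 2.57, 3.29 and 2.22 CPM in WT and 5.84, 7.57 and 9.18 CPM in Pcf11-OE2, and SAG1, the α-agglutinin gene, was not called at 39.2, 40.7 and 38.1 CPM in WT and 49.6, 39.1 and 40.9 CPM in Pcf11-OE2. MATALPHA2, a regulator of α cells, fell 1.61-fold (from 13.3 to 8.29 CPM). Of 25 meiosis and sporulation genes 9 were lower and 5 higher, with a median of -0.020, near the background. IME1, the master activator of meiosis, had 854, 1104 and 736 CPM in WT and 137, 77.7 and 109.7 CPM in Pcf11-OE2 (log2 fold change -3.05 ± 0.29 SE, edgeR adjusted p = 1.04e-05). IME4, an RNA methyltransferase gene needed for entry into meiosis, had 186, 177 and 182 CPM in WT and 34.3, 32.5 and 35.6 CPM in Pcf11-OE2, with 82.7% of its feature shared. For both, WT was higher in all libraries. In the whole list 6 genes were at least 2-fold lower and 3 at least 2-fold higher, with DIT2, up 3.64-fold, among the latter. Mating type and ploidy are not given in the labels, and their part in these differences was not tested.

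A set of genes was close to 0 in one of the strains. The labels do not say which background each strain has, and the part of strain background in these differences was not tested. SEO1, a permease gene, had 12.9, 12.5 and 12.9 CPM in WT and 0.0513, 0.0678 and 0.122 CPM in Pcf11-OE2. AIF1, a gene of programmed cell death, had 15.2, 14.1 and 17.2 CPM in WT and 0.0769, 0.181 and 0.0732 CPM in Pcf11-OE2. PDR18, an ABC transporter gene, had 47.2, 46.5 and 48.6 CPM in WT and 0.359, 0.362 and 0.122 CPM in Pcf11-OE2 (log2 fold change -7.38 ± 0.30 SE, edgeR adjusted p = 7.74e-08). In OE2 each of these was below 0.5 CPM in all libraries, and they were as low in Pcf11-OE1, at means of 0.125, 0.0475 and 0.296 CPM. Copies of the asparaginase II gene ASP3 went the other way, all but ASP3-1 from next to no reads. For ASP3-2 the WT libraries held 2 reads in sum and the OE2 libraries 15076, 5839 times the WT level (95% exact counting interval 1616 to 48219, counting error only). ASP3-4, whose coding sequence is identical, had 3 and 4041 reads, a ratio of 1043 (357 to 5062). ASP3-3 had 1 and 570 reads, a ratio of 442 (78.9 to 17470). The ASP3-1 feature was not near 0 in WT, with 12.8, 4.37 and 13.7 CPM in WT and 41.2, 51 and 52 CPM in Pcf11-OE2 (log2 fold change 2.23 ± 0.41 SE, edgeR adjusted p = 0.000876). RDN5-2, a feature that overlaps it, had means of 10.29 CPM in WT and 47.98 CPM in Pcf11-OE2, against 10.28 and 48.07 CPM for ASP3-1. Whether any ASP3-1 reads lie outside the shared bases was not tested, so these values do not show that ASP3-1 itself was expressed. Reads of ASP3-2 and ASP3-4 cannot be told apart by coding sequence. In OE2 the ASP3-2 level was 129, 111 and 125 CPM, even across libraries.

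Many of these genes are neighbours, and the part of strain background in this pattern was not tested either. There were 8 runs of at least 3 neighbouring features all called in one direction at 4-fold or more, 5 lower and 3 higher. At the left end of chromosome III, YCL075W, YCL074W, GEX1 and VBA3 (from base 2126 to 11082) fell together, GEX1, for a glutathione exchanger, from 20.6, 21.8 and 23 CPM to 1.44, 1.22 and 0.659 CPM. Near the right end of that chromosome, PAU3, ADH7, RDS1, AAD3 and YCR108C (307801 to 316188) fell. ADH7, an alcohol dehydrogenase gene, had 15, 17.2 and 17.8 CPM in WT and 0.128, 0.0678 and 0.122 CPM in Pcf11-OE2, and YCR108C had 574 reads in WT and none in OE2, at least 247 times lower against a floor of 3 counts over the group. On chromosome XIV, PDR18, YNR071C and HXT17 (765375 to 774801) fell. On chromosome IV, the sodium pump genes ENA5, ENA2 and ENA1 (527009 to 538467) fell. ENA1 had 622, 473 and 433 CPM in WT and 28.6, 8.29 and 13.2 CPM in Pcf11-OE2, with ENA2 98.7% identical in coding sequence, and stood at -4.93 on the log2 scale (-5.55 without Pcf11-OE2 replicate 1). A second run on chromosome IV is YDL086W, YDL085C-A and the NADH dehydrogenase gene NDE2. The higher runs were the copies of ASP3 and RDN5 and features among them on chromosome XII (7 features from 468813 to 474057 and 11 from 481873 to 489929), whose features overlap and share reads, and SNO4, ERR3 and PAU19 on chromosome XIII (918366 to 923015). ERR3, an enolase-related gene 99.1% identical to ERR1, had 5.46, 4.18 and 4.98 CPM in WT and 649, 201 and 285 CPM in Pcf11-OE2, and stood at 5.66 on the log2 scale without Pcf11-OE2 replicate 1 against 6.28 with it. PAU19, with 1 read in WT and 17 in OE2, lost its call without any 1 of 5 libraries.

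Large changes were more frequent near chromosome ends. Within 10 kb of an end 36 of 120 tested genes (30.0%) were called at 4-fold or more, 17.2% of 122 from 10 to 20 kb, 9.86% of 142 from 20 to 30 kb, 5.38% of 465 from 30 to 60 kb, and 210 of 5257 (3.99%) farther in. Genes near ends were also expressed less, with a median WT level of 10.6 CPM within 10 kb and 56.4 CPM beyond 60 kb. The parts of level and of strain background in the difference were not tested. Directions were balanced within 10 kb, with 35 genes at least 2-fold higher and 33 lower.

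**Figure D4:**
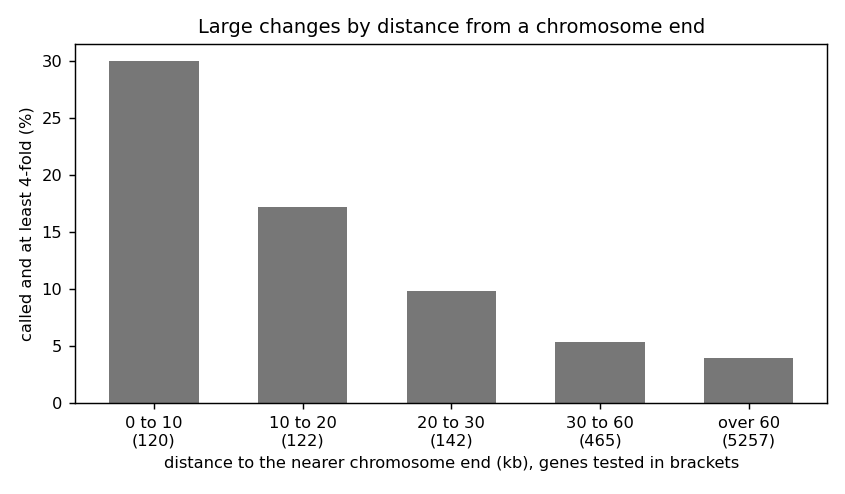
Percent of tested genes called at 4-fold or more in Pcf11-OE2 against WT (vertical axis, bars from 0) by distance to the nearer chromosome end in kb (horizontal axis), with genes tested in brackets. The share falls from 30.0% within 10 kb to 3.99% beyond 60 kb.

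All 8 tested features of the mitochondrial genome were called lower, with a median of -2.42. The large ribosomal RNA, 21S_RRNA, had 48.2, 37.2 and 21.7 CPM in WT and 12.3, 8.14 and 6.15 CPM in Pcf11-OE2 (log2 fold change -2.01 ± 0.34 SE, edgeR adjusted p = 0.000544), and the small one, 15S_RRNA, fell 9.96-fold. For each of the 8 features all OE2 libraries were below all WT libraries. For both ribosomal RNAs replicate 3 was the lowest of WT and of OE2. The coding features COX1, COB and their intron-encoded genes were near 1 CPM or below in WT, except AI1 at 5.15 ± 1.35 CPM (SD, n = 3). Many overlap each other. The labels name a kit for messenger RNA, and the part of RNA selection in these levels was not tested.

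The overexpression strains differed from each other in few genes besides those of chromosome I. Pcf11-OE2 and Pcf11-OE1 differed in 90 genes (1.47%), 76 lower (1.24%) and 14 higher (0.229%) in OE2. Of the 76 lower genes 67 lie on chromosome I, where 93 genes were tested. On that chromosome the median log2 fold change was 0.099 for OE2 over WT, 1.10 for OE1 over WT and -0.97 for OE2 over OE1. All other nuclear chromosomes had medians from -0.10 to 0.16 for OE2 over WT. MAK16, a ribosome biogenesis gene there, had 139, 272 and 195 CPM in OE2, 843, 581 and 363 CPM in OE1 and 99.9, 88.1 and 94.2 CPM in WT. FUN12, a translation initiation factor gene there, had 1002, 1324 and 1293 CPM in OE2, 3324, 3068 and 2371 CPM in OE1 and 599, 619.7 and 577 CPM in WT. Both were highest in OE1 and lowest in WT, without overlap between OE2 and either. DESeq2 called 143 genes between these strains.

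**Figure D5:**
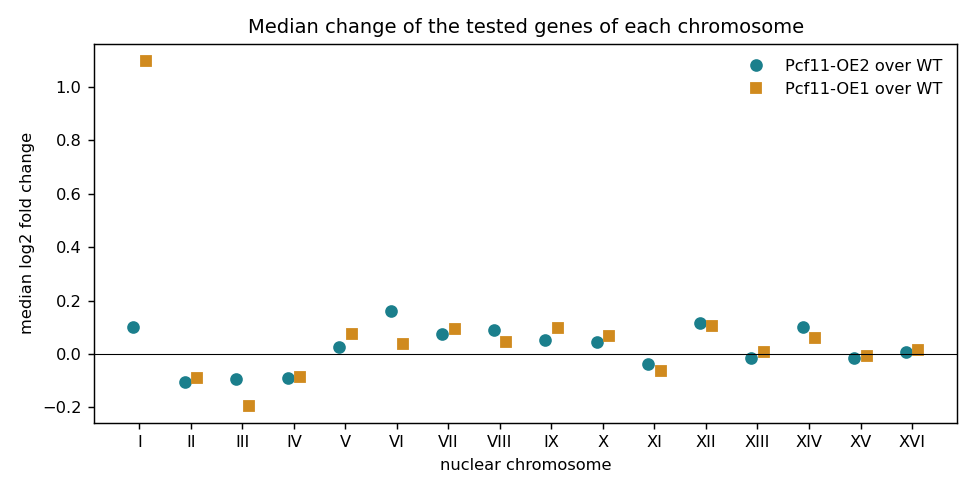
Median log2 fold change over WT of the tested genes of each nuclear chromosome, for Pcf11-OE2 (teal circles) and Pcf11-OE1 (orange squares). Chromosome I stands at 1.10 in Pcf11-OE1 and at 0.099 in Pcf11-OE2, and the other chromosomes lie close to 0 in both.

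The leading genes of the groups above stood at near levels in both overexpression strains, whose comparisons with WT share the WT libraries. ADY2 was at 269 ± 223 CPM in OE2 and 229 ± 146 CPM in OE1, MAL11 at 2219.7 ± 664 and 1782 ± 128 CPM, STE2 at 29.4 ± 4.28 and 25.5 ± 3.22 CPM, and FAA1 at 84 ± 6.93 and 76.5 ± 4.2 CPM (SD, n = 3). None of these genes was called between OE2 and OE1, which does not show that they were equal. Ribosome biogenesis had a median of 0.68 in OE2 and 1.00 in OE1 over WT, and 1 of its 103 genes was called between the strains.

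RNA bound by Flag-tagged Pcf11 was sequenced in the same series after crosslinking and immunoprecipitation (CLIP), with peaks called by the authors in each of 2 immunoprecipitations. A sense peak in both was present in 4.78% of 1965 protein-coding genes called higher (95% exact interval 3.88% to 5.82%), 5.85% of 1896 called lower (4.84% to 7.01%) and 5.29% of 2062 not called (4.36% to 6.34%). These intervals overlap. Genes with such peaks were more highly expressed, with a median WT level of 131.9 CPM against 52.7 CPM for the rest. In the highest of 4 equal classes of mean level, 23.2% of 151 genes with peaks were higher and 40.4% lower, against 24.8% and 39.5% of 1330 without. In the class below it, 26.0% of 73 genes with peaks were higher and 38.4% lower, against 33.3% and 33.2% of 1407. In the next lower class, 46.7% of 60 were higher and 23.3% lower, against 35.0% and 31.0% of 1421, and in the lowest 40.0% of 30 were higher and 26.7% lower, against 39.6% and 24.3% of 1451. The direction of the difference thus varied between classes, and no test was made of the difference between these shares.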

How the data were processed

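Reads were trimmed with fastp 0.23.0, per the submitters' processing notes. No source used here names the aligner, counting tool or strand setting. The deposited counts are raw reads per feature made by the authors for WT, Pcf11-OE1 and Pcf11-OE2, with coordinates on assembly R64. The 506 rows without a gene name held 0.872% to 1.38% of the counts and were left out. Libraries were made with a stranded kit, per the labels' protocols. edgeR 4.0.16 (R 4.3.3) fitted all 9 libraries with TMM scaling, filterByExpr and robust quasi-likelihood tests, with Benjamini-Hochberg adjustment at 0.05, and was tested on simulated data. The common biological coefficient of variation was 0.144. DESeq2 1.42.0, other scalings, filters, groups, a replicate block and libraries left out were alternatives. P-values set the difference between strain means against the spread between replicate libraries, estimated over all 9, Pcf11-OE1 included. The labels do not give the number of clones, so whether that spread covers variation between clones is unknown.

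Genes are named by a rule: PCF11, its overlapping gene and the construct donors; the 12 highest and 12 lowest fold changes with at least 10 CPM and no overlap; the 8 largest rises and falls in CPM; up to 4 per direction of each of 53 lists; the 8 largest differences from Pcf11-OE1 each way; and runs of neighbours. Other list members, such as STE12 and POX1, were chosen after their values were seen. The comparison and the lists were chosen with earlier results of these data known. Sequences and promoters come from the RefSeq R64 genome, read 500 bases upstream of features that start at the RefSeq start. CLIP peaks and their heights, a score per peak deposited by the authors, and the log2 fold changes and p-values of the authors' deposited table are the authors'. In the authors' deposited table PCF11 has a log2 fold change of -2.31, WT over OE2, and 394 of 394 named genes called here and listed there have the same direction. The mapping statistics used give total read counts for WT, deposited by the authors.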

Additional observations from a re-analysis of the deposited data

Results flagged for a closer look

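Levels in Pcf11-OE2 differed from those in Pcf11-OE1 by an edgeR test of that difference itself for 90 genes, and those chosen by size and level are given here on the log2 scale, OE2 over OE1. PCF11 differed most, at -2.95 ± 0.14 SE. MAK16 (-1.56 ± 0.30), RBG1 (-1.39 ± 0.24), FUN30 (-1.36 ± 0.17), LTE1 (-1.29 ± 0.14), ECM1 (-1.28 ± 0.13), SEN34 (-1.28 ± 0.12) and FUN12 (-1.28 ± 0.15), all on chromosome I, were lower in OE2. FUN30, a chromatin remodeller gene, had 21.9, 34.3 and 27.6 CPM in OE2, 86.1, 69.4 and 59.6 CPM in OE1 and 33.4, 33.9 and 31.3 CPM in WT. SEN34, a tRNA splicing endonuclease gene, had 33.2, 42.7 and 37.6 CPM in OE2, 89.1, 102 and 84.4 CPM in OE1 and 39.7, 38.7 and 41.6 CPM in WT. In both, OE2 was near WT and OE1 stood above. ECM1, a ribosome export gene, was below WT in OE2 (log2 fold change -0.88 ± 0.13 SE) and above it in OE1, with 81.3, 67.1 and 63.1 CPM.

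Of 32 iron and copper genes 3 were called between the strains, all higher in OE2 (0.229% of all genes were). FIT3 (1.17 ± 0.16) and FIT2 (1.04 ± 0.19), cell wall proteins that hold iron siderophores, and TIS11 (1.10 ± 0.14), which degrades messenger RNA when iron is short, were these 3. FIT3 had 53.3, 59.6 and 73.2 CPM in OE2, 30.5, 28.9 and 23.5 CPM in OE1 and 249.9, 183 and 215 CPM in WT, and both overexpression strains were below WT. THI5 (0.91 ± 0.15), of thiamine synthesis, with near-identical copies, NCW2 (0.88 ± 0.14), of the cell wall, and BDS1 (0.65 ± 0.12), a sulfatase gene, were also higher in OE2. NCW2 had 55.8, 58.7 and 48.7 CPM in WT and 434, 346 and 499 CPM in OE2.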

How the results depend on the processing

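With relative log expression scaling, no filter on low counts, only the 2 strains in the fit, the replicate block or DESeq2, the counts of genes higher and lower in Pcf11-OE2 than in WT stayed within 1.5 times the reported ones, and 96.5% to 99.9% of the 3978 calls remained in the same direction. The count of genes that differ between Pcf11-OE2 and Pcf11-OE1 moved beyond that with DESeq2, to 143 from 90, a setting that changes test, scaling and filter together. Leaving out 1 library at a time gave 1788 to 2091 genes higher, 1720 to 2005 lower, 624 to 778 at least 2-fold higher, 634 to 747 at least 2-fold lower and 62 to 91 between the overexpression strains. The log2 fold change of PCF11 ranged from 2.19 to 2.44. Replicate numbers did not pair the samples: the deviations of same-numbered WT and Pcf11-OE2 libraries correlated at -0.024, -0.015 and -0.0022, and with the replicate number as a block 1977 genes were higher and 1916 lower. Of 472 named genes 416 kept their call in every setting, and none reversed while called. Features with few reads in one strain, such as the ASP3 copies, are limited by depth, and the feature overlap described above limits single genes.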

Other observations

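Cell wall mannoprotein genes moved in both directions, with 14 of 31 higher (background 33.0%) and 9 lower (background 32.0%) in Pcf11-OE2 than in WT. TIR4, DAN4 and TIR2, mannoproteins of cold and anaerobic growth, rose 9.66-fold, 9.04-fold and 7.33-fold, and FLO11, the flocculin of filamentous growth, had 24.5, 21.9 and 26.5 CPM in WT and 169, 196 and 175 CPM in Pcf11-OE2. FLO1, another flocculin gene, and CWP2, a major mannoprotein gene, fell 2.6-fold and 2.92-fold. Among 11 histone genes 3 were higher and 5 lower. HTA1, one of the H2A genes, fell from 500.3, 442 and 369 CPM to 133, 152 and 142 CPM while its neighbour HTB1, for H2B, rose from 43.5, 50.8 and 40.9 CPM to 93.4, 90.2 and 86.5 CPM. Of 32 iron and copper genes 14 were higher and 10 lower (8 higher without Pcf11-OE2 replicate 3, 9 without WT replicate 3, and 6 lower without Pcf11-OE2 replicate 2). FRE7, a reductase gene, and ARN1, a siderophore transporter gene, rose 5.71-fold and 4.33-fold, while SIT1, another siderophore transporter gene, and FET4, a low-affinity iron transporter gene, fell 5.03-fold and 4.52-fold.

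Nutrient uptake and synthesis genes were mixed as groups with large single changes. URA1, the dihydroorotate dehydrogenase gene, fell from 778, 623 and 662 CPM to 70.4, 83.1 and 75.8 CPM, while URA3, a common selection marker, rose from 105, 113 and 111 CPM to 300.3, 381 and 332 CPM. Of 8 marker genes 6 were higher and 1, ADE2, lower (2.02-fold). PHO89, the sodium and phosphate cotransporter gene, had 480.2, 644 and 567 CPM in WT and 11.4, 5.27 and 5.93 CPM in Pcf11-OE2 (log2 fold change -6.23 ± 0.35 SE, edgeR adjusted p = 4.68e-07), while 10 of 26 phosphate genes were lower and 3 higher. CHA1, the serine and threonine deaminase gene, and DIP5, an acidic amino acid permease gene, fell 23.4-fold and 10.4-fold. CHA1 had 302, 455 and 448 CPM in WT and 33.9, 9.56 and 8.2 CPM in Pcf11-OE2, and DIP5 had 633, 815 and 624 CPM in WT and 120.2, 39.5 and 39.9 CPM in Pcf11-OE2. Without Pcf11-OE2 replicate 1, the highest OE2 library of both, their log2 fold changes were -5.48 and -4.11 against -4.55 and -3.38 with it. Of the vitamin B6 genes SNZ2, SNZ3 and SNO2 rose 3.09-fold, 3.67-fold and 3.22-fold. THI7, the thiamine transporter gene, rose 3.84-fold and its relative THI72 fell 6.74-fold. SNQ2, a multidrug transporter gene, fell 3.27-fold. Of 33 proteasome genes 17 were higher and 7 lower, with a median of 0.28. Ergosterol genes were called in both directions, 11 of 27 higher and 10 lower. So were 48 amino acid synthesis genes (19 and 15) and 30 genes of nitrogen and allantoin use (8 and 12). Over all genes 33.0% were higher and 32.0% lower.

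PMA2, a minor plasma membrane proton pump gene, had 152, 158 and 156 CPM in WT and 105, 10 and 17 CPM in Pcf11-OE2. It was not called in the full set (edgeR adjusted p = 0.0666), and had a log2 fold change of -3.51 and an adjusted p of 3.88e-04 without Pcf11-OE2 replicate 1. With the replicate number as a block it was also called, at -2.36 (edgeR adjusted p = 0.0352).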
